A study of Homo sapiens with 18 samples.

Results

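The genes described here are 49 genes of mitosis and of the G2/M transition, the step at which a cell that has copied its DNA enters division. They were taken by name from a list of mitotic kinases, spindle, kinetochore, condensin and cytokinesis genes, without a threshold on measured values but with earlier results of these data known, and all 49 were found among the 61806 rows of the deposited count table and passed the filter on low counts together with 19743 genes in all. In all, 6 groups of poly(A) RNA-seq libraries were compared, 3 libraries to a group and 18 together: HepG2, a human hepatoma cell line of wild-type genotype, and APOA4-KO, a line made from HepG2 by editing exons of APOA4 with CRISPR-Cas9, each at 0 h (no treatment) and after 24 h and 48 h of hypoxia at 1% oxygen in a tri-gas incubator. Both lines share the HepG2 background. APOA4-KO was raised from single colonies with mutations in both alleles, and what sets it apart from HepG2 may be the edit or any other trait of those cells. Cells cultured for the same times without hypoxia were not part of the design, and the effects of low oxygen and of time in culture therefore cannot be told apart. The labels number the libraries of a group but do not say that they came from separate cultures, so the p-values measure the spread between these libraries, which may be technical.

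A cell enters mitosis when CDK1, the catalytic kinase, is bound by cyclin B and freed from inhibitory phosphates by CDC25 phosphatases. PLK1 and the Aurora kinases then drive the building of the spindle, condensins and topoisomerase II compact and untangle the chromosomes, and kinetochores join each chromosome to microtubules. The spindle checkpoint holds back CDC20 and the anaphase-promoting complex until every kinetochore is attached, after which separase cuts cohesin and the midzone proteins complete cytokinesis. Most of these genes are transcribed late in the cell cycle under FOXM1, B-MYB and the DREAM and MuvB complexes, and their RNA is known as a readout of the share of dividing cells in a culture. HepG2 cells divide in culture, unlike most hepatocytes of the adult liver. In RNA of a whole culture, fewer cells in G2 or mitosis and less RNA per such cell cannot be told apart.

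Total counts ran from 76481820 to 91604947 per library (median 81836972). A count of 4 was 2.66 to 3.12 times as common as the counts next to it, and 8 and 12 were likewise in excess, so a count need not be 1 pair of reads. The lowest count of any member in any library was 214, for SGO1. APOA4 itself (ENSG00000110244) was counted 702 to 799 times in untreated HepG2 and 607 to 702 times in untreated APOA4-KO. After 48 h these ranges were 1673 to 1968 in HepG2 and 551 to 648 in APOA4-KO. The difference of the lines in APOA4 was a log2 fold change of -0.23 before hypoxia and of -1.29 after 48 h (by edgeR, adjusted p = 0.0404 and 8.96e-11). The counts do not show whether the edited sequence is present. All 10 genes of a list of hypoxia-inducible factor targets rose from 0 h at both times in both lines. Their median log2 fold change at 48 h was 1.94 in HepG2 and 2.55 in APOA4-KO. Hepatocyte and hepatoma markers summed to 51510 to 77590 CPM (the count of a gene relative to the library total scaled by TMM) over the 18 libraries, with ALB between 13810 and 19610. Fibroblast markers summed to 28.9 to 51.6 and endothelial markers to 7.81 to 16.1. Of the leukocyte markers, PTPRC lay between 0 and 7.81 CPM, while LYZ lay between 1037 and 2771. The share of counts on the mitochondrial genome was 6.5% to 8.96% in HepG2 and fell in APOA4-KO from 9.01% to 9.31% at 0 h to 5.18% to 5.19% at 48 h. Its part in the results was not tested.

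The 49 genes took the smallest share of the RNA at different times in the 2 lines. In HepG2, their summed share of all counts was 0.250% to 0.252% at 0 h, 0.185% to 0.187% at 24 h and 0.274% to 0.276% at 48 h. In APOA4-KO, the same share was 0.261% to 0.265%, 0.220% to 0.236% and 0.176% to 0.177%. The libraries of HepG2 dipped at 24 h and ended above their start, while those of APOA4-KO were lower at each later time, and no range overlapped another. The mean log2 CPM of the members was 5.03 ± 0.014, 4.70 ± 0.028 and 5.22 ± 0.0034 in HepG2 at 0, 24 and 48 h, and 5.14 ± 0.0087, 5.00 ± 0.036 and 4.70 ± 0.0004 in APOA4-KO (SD, n = 3). By group mean, 24 members (49%) were lowest in APOA4-KO at 48 h and 17 (34.7%) in HepG2 at 24 h. The highest mean was in HepG2 at 48 h for 22 members (44.9%) and in APOA4-KO at 24 h for 13 (26.5%). Over all tested genes, 25.8% were lowest in APOA4-KO at 48 h and 13.2% in HepG2 at 24 h, while 11.4% were highest in HepG2 at 48 h and 20.2% in APOA4-KO at 24 h.

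**Figure D1:**
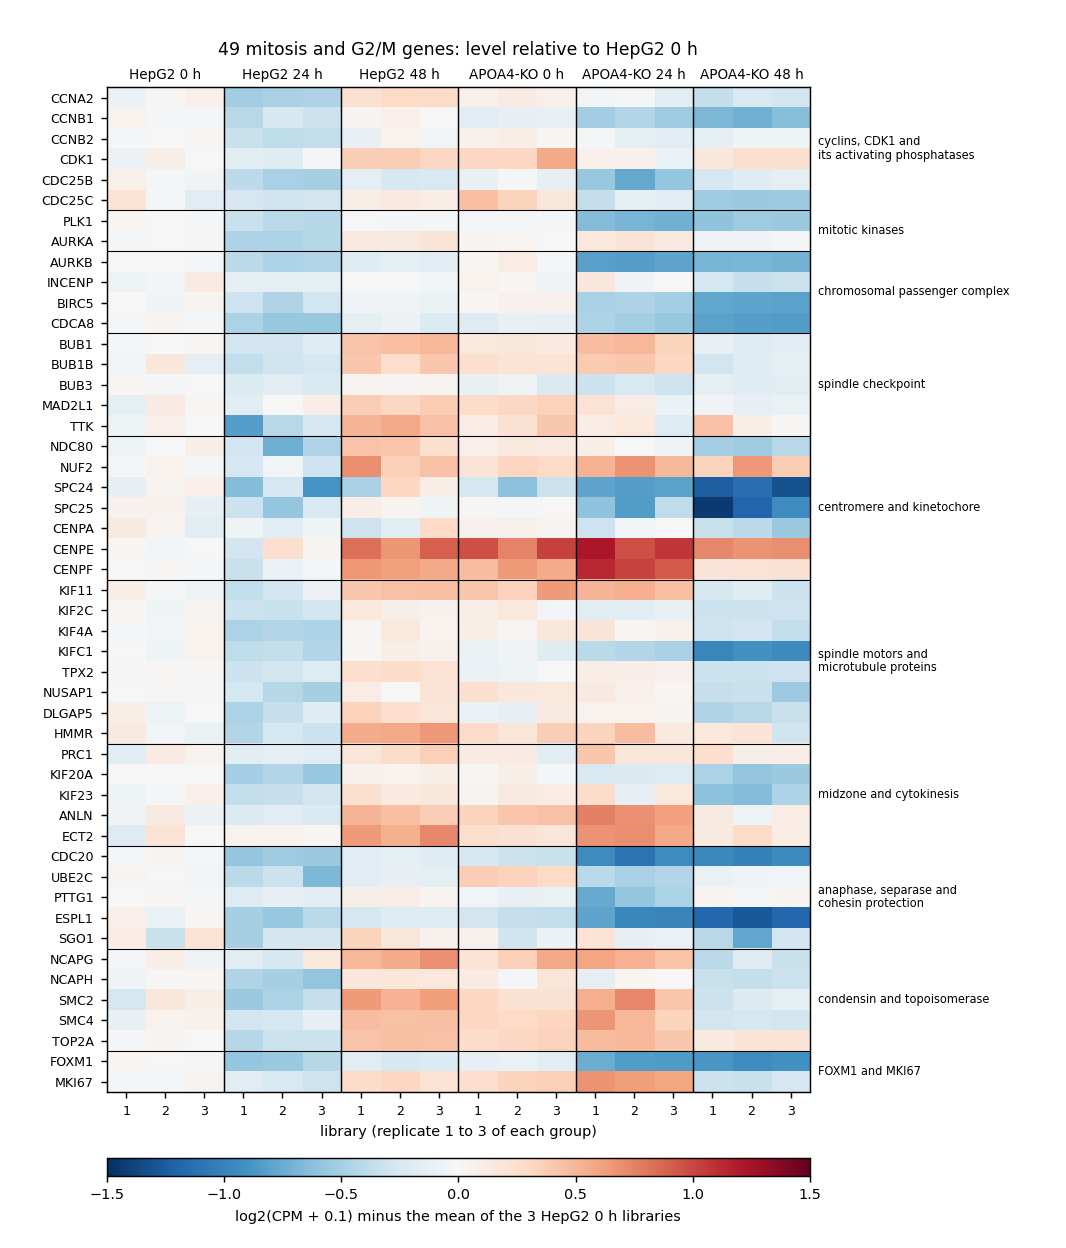
Level of the 49 genes in each of the 18 libraries, as log2(CPM + 0.1) minus the mean of the 3 HepG2 0 h libraries, with genes in rows ordered by role and libraries in columns by group. Blue cells are below and red cells above HepG2 at 0 h: the HepG2 24 h columns are mostly blue, the HepG2 48 h and APOA4-KO 24 h columns hold most of the red, and the APOA4-KO 48 h columns are mostly blue.

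In HepG2, the question was how the mitotic genes change over the course of hypoxia. At 24 h, 38 of the 49 members were lower than at 0 h, against 18.3% of all tested genes called lower, and no member was called higher, against 11.4% of all tested genes (edgeR's quasi-likelihood test with Benjamini-Hochberg adjustment over all tested genes, adjusted p under 0.05, here called passing the test). The count of 0 was also 0 at an unadjusted p under 0.05, in DESeq2 and in limma on FPKM. The median log2 fold change over the members was -0.35, against -0.03 over all tested genes. The members that fell most were SPC24, a subunit of the NDC80 complex, by 0.58 ± 0.17, CDC20, the activator of the anaphase-promoting complex, by 0.56 ± 0.04, CDCA8 (borealin), by 0.54 ± 0.04, the transcription factor FOXM1, by 0.52 ± 0.04, and the condensin subunit NCAPH, by 0.52 ± 0.05 (log2, ± standard error). The 11 members that did not pass were CDK1, INCENP, MAD2L1, NUF2, CENPA, CENPE, CENPF, PRC1, ECT2, SGO1 and NCAPG.

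From 24 h to 48 h in HepG2, 47 of the 49 members rose, against 18.7% of all tested genes called higher, and none fell, against 11.9% called lower (edgeR). The count of 0 was again 0 at an unadjusted p under 0.05, in DESeq2 and in limma on FPKM. The median was 0.51, against 0.01 over all tested genes. SMC2, the shared ATPase of both condensins, rose most, by 1.06 ± 0.10, and was the only member past 2-fold, against 0.689% of all tested genes. With offsets for GC content and length (described below), SMC2 rose by 0.86, below 2-fold. TTK, the checkpoint kinase MPS1, followed with 0.997 ± 0.14, then HMMR, a spindle assembly factor, with 0.94 ± 0.11, NDC80 with 0.86 ± 0.10 and TOP2A with 0.80 ± 0.03. INCENP (0.12 ± 0.06) and CENPA (0.06 ± 0.13) did not pass.

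Set against 0 h, HepG2 at 48 h had 24 members higher and 6 lower, against 13.1% and 14.6% of all tested genes, with a median of 0.16 against -0.03. The highest were CENPE, a kinetochore motor, at 0.81 ± 0.12, ECT2, the exchange factor of the cytokinetic ring, at 0.63 ± 0.08, CENPF at 0.61 ± 0.07, HMMR at 0.59 ± 0.11 and SMC2 at 0.59 ± 0.10. The 6 lower members were ESPL1 (separase) at -0.21 ± 0.06, CDC25B at -0.21 ± 0.05, FOXM1 at -0.21 ± 0.04, AURKB at -0.16 ± 0.04, CDC20 at -0.16 ± 0.04 and CDCA8 at -0.14 ± 0.04. Without the HepG2 0 h replicate 1 library, 3 members were lower. With offsets for GC content and length (described with the GC content below), 22 members were higher and none was lower, against 2035 and 2107 of 19181 genes.

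In APOA4-KO, members were called in both directions at 24 h. Of the 49, 12 (24.5%) were higher and 22 (44.9%) lower than at 0 h, against 21.5% and 22.8% of all tested genes. The share called higher was thus near that of all tested genes. The median was -0.14 against -0.01. The members that fell most were AURKB by 0.85 ± 0.04, UBE2C, the ubiquitin-conjugating enzyme of the anaphase-promoting complex, by 0.78 ± 0.06, CDC20 by 0.69 ± 0.04, FOXM1 by 0.68 ± 0.04 and PLK1 by 0.66 ± 0.03. Against this direction, CENPF was at 0.47 ± 0.07, ECT2 at 0.43 ± 0.08, MKI67 at 0.32 ± 0.04, SMC2 at 0.31 ± 0.10 and NUF2 at 0.30 ± 0.11. The rises depended on the correction for GC content: with the offsets, 3 members were higher (INCENP, AURKA and BUB1) and 25 lower. In that fit, 3679 of 19181 genes were higher and 4023 lower, and MKI67 was at -0.03 and SMC2 at -0.0059.

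At 48 h, 38 of the 49 members were lower in APOA4-KO than at 0 h, against 25.9% of all tested genes, and none was higher, against 23.9% (edgeR). The count of 0 was the same at an unadjusted p under 0.05, in DESeq2 and in limma on FPKM, and became 1 without the APOA4-KO 24 h replicate 1 or replicate 3 library. The median was -0.42 against -0.07. SPC25, a subunit of the NDC80 complex, fell by 1.20 ± 0.13 and was the only member past 2-fold, against 6.85% of all tested genes. The next were ESPL1 with -0.89 ± 0.06, CDC25C with -0.88 ± 0.09, SPC24 with -0.85 ± 0.17 and BIRC5 (survivin) with -0.84 ± 0.04. From 24 h to 48 h, 33 members fell and 7 rose in APOA4-KO, against 19.4% and 21.9% of all tested genes, with a median of -0.32 against -0.05. MKI67 fell by 0.93 ± 0.04, NCAPG by 0.82 ± 0.10, CENPF by 0.81 ± 0.07, SMC2 by 0.79 ± 0.10 and SMC4 by 0.78 ± 0.07. The 7 that rose were PTTG1 (securin) at 0.62 ± 0.06, CDC25B at 0.44 ± 0.05, UBE2C at 0.38 ± 0.06, CDK1 at 0.21 ± 0.07, BUB3 at 0.13 ± 0.04, PLK1 at 0.12 ± 0.03 and AURKB at 0.11 ± 0.04. The last 3 were at -0.001, -0.01 and -0.02 when libraries were scaled by their totals alone, under which 3 members rose. The rise of CDK1 lost its call without the APOA4-KO 24 h replicate 3 library or the APOA4-KO 48 h replicate 2 or 3 library.

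Between the lines at 0 h, 16 members were higher and 7 lower in APOA4-KO, against 12.9% and 17.6% of all tested genes, with a median of 0.09 against -0.01. CENPE was at 0.93 ± 0.12, CENPF at 0.56 ± 0.07, KIF11 at 0.47 ± 0.08, CDK1 at 0.40 ± 0.07 and ANLN (anillin) at 0.39 ± 0.06. The lower members were ESPL1 at -0.33 ± 0.06, CDC20 at -0.30 ± 0.04, CDCA8 at -0.14 ± 0.04, BUB3 at -0.13 ± 0.04, CCNB1 at -0.13 ± 0.04, FOXM1 at -0.13 ± 0.04 and KIFC1 at -0.11 ± 0.04. KIFC1 passed in only 7 of 28 alternative fits and lost its call in 11 of the 18 among them that left out a library. With the offsets for GC content and length it was at 0.04. The number of lower members was 3 without the HepG2 0 h replicate 1 library and 4 without the APOA4-KO 0 h replicate 1 or replicate 3 library.

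After 24 h of hypoxia, most members were higher in APOA4-KO than in HepG2, and after 48 h most were lower. At 24 h, 29 were higher and 9 lower, against 23.6% and 24.6% of all tested genes, with a median of 0.36 against 0.01. The members past 2-fold were CENPF at 1.17 ± 0.07, CENPE at 1.08 ± 0.12 and SMC2 at 1.03 ± 0.10, against 4.5% of all tested genes, and ANLN at 0.88 ± 0.06 and MKI67 at 0.87 ± 0.04 came next. With the offsets for GC content and length, the first 3 were at 0.59, 0.52 and 0.57, below 2-fold. On the lower side were PTTG1 at -0.44 ± 0.06, CDC20 at -0.44 ± 0.04, ESPL1 at -0.43 ± 0.06, AURKB at -0.38 ± 0.04, PLK1 at -0.30 ± 0.03, FOXM1, CCNB1, CDC25B and BIRC5.

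At 48 h, 40 of the 49 members were lower in APOA4-KO, against 27.3% of all tested genes, and none was higher, against 23.5% (edgeR). That 0 was also the count at an unadjusted p under 0.05, in DESeq2 and in limma on FPKM. The median was -0.56 against -0.04 over all tested genes. SPC24 was at -1.25 ± 0.17, SPC25 at -1.22 ± 0.13, KIFC1, a minus-end motor of the spindle, at -1.01 ± 0.04 and ESPL1 at -1.004 ± 0.06. These 4 were past 2-fold, against 7.18% of all tested genes, and NCAPG followed at -0.90 ± 0.10. The 9 that did not pass were CCNB2, CDK1, CDC25B, TTK, NUF2, CENPE, PRC1, UBE2C and PTTG1. When libraries were scaled by their totals alone, the median of all tested genes moved to -0.19 and that of the members to -0.71. There, 46 members were lower, against 6788 of 19743 genes. With the offsets for GC content and length, 40 were lower, and CDC25B, UBE2C and PTTG1 passed as higher at 0.14, 0.27 and 0.12. In that fit, 4983 of 19181 genes were lower and 4891 higher, and KIFC1 was at -0.82, below 2-fold.

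**Figure D2:**
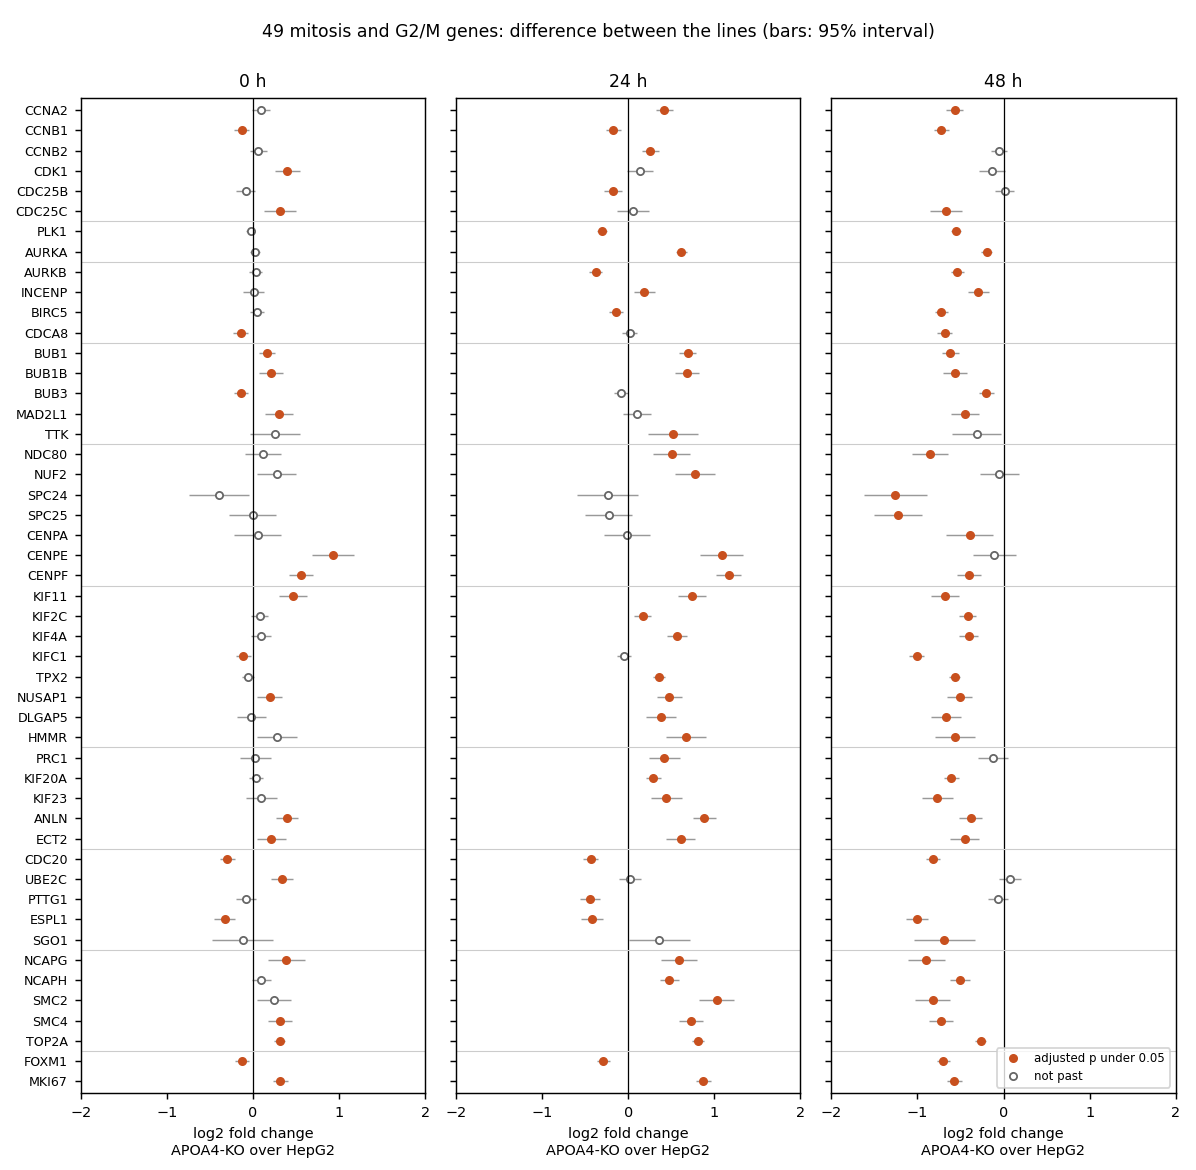
Log2 fold change of APOA4-KO over HepG2 for each of the 49 genes at 0 h, 24 h and 48 h, with 95% intervals of the edgeR fit as bars and genes ordered by role. Filled points passed at an adjusted p under 0.05 (16 higher and 7 lower at 0 h, 29 and 9 at 24 h, 40 lower at 48 h), and the points move from the right of 0 at 24 h to the left of 0 at 48 h.

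Part of the members stood on opposite sides at the later times. Of the 49, 24 were higher in APOA4-KO at 24 h and lower at 48 h, against 3.65% of all tested genes, among them CCNA2, AURKA, BUB1, NDC80, CENPF, KIF11, TPX2, ANLN, NCAPG, SMC2, SMC4, TOP2A and MKI67. Another 7 were lower at both times (CCNB1, PLK1, AURKB, BIRC5, CDC20, ESPL1 and FOXM1), against 14.8% of all tested genes, and 4 of these (CCNB1, CDC20, ESPL1 and FOXM1) were lower at 0 h too, against 9.66%, so that the shares of the members were near these backgrounds. With the offsets for GC content and length (described below), PLK1, AURKB, BIRC5, CDC20 and FOXM1 were not called lower at 24 h. FOXM1 was not called lower at 0 h either (-0.02). Among the members on opposite sides, DLGAP5, KIF23 and NCAPG did not pass at 24 h in that fit. The comparisons at 24 h and 48 h rest on different libraries.

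The change from 0 h was then compared between the lines as an interaction, which tests the difference itself. For the change to 24 h, 23 members moved further up or less far down in APOA4-KO and 6 the other way, against 16.8% and 15.4% of all tested genes, with a median difference of 0.26 against -0.01. SMC2 differed by 0.78 ± 0.14, CENPF by 0.61 ± 0.10, AURKA by 0.59 ± 0.04, MKI67 by 0.56 ± 0.06 and BUB1 by 0.53 ± 0.06, and on the other side AURKB by -0.41 ± 0.05, PTTG1 by -0.36 ± 0.08, UBE2C by -0.32 ± 0.09, PLK1 by -0.28 ± 0.04, BIRC5 by -0.19 ± 0.05 and FOXM1 by -0.16 ± 0.05, the last of which lost its call in 12 of 18 refits without a library. For the change to 48 h, 41 members had a lower change in APOA4-KO, against 17.8% of all tested genes, and none a higher one, against 18.6% (edgeR, with a count of 0 also at an unadjusted p under 0.05, in DESeq2 and in limma on FPKM). The median difference was -0.64 against -0.04. NCAPG, a condensin I subunit, differed by -1.28 ± 0.14, SPC25 by -1.22 ± 0.19, KIF11 by -1.15 ± 0.11, SMC2 by -1.06 ± 0.14, SMC4 by -1.04 ± 0.09 and CENPE by -1.04 ± 0.17. These 6 were past 2-fold, against 3.99% of all tested genes. CCNB2, CDC25B, BUB3, NUF2, CENPA, PRC1, PTTG1 and SGO1 did not pass.

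**Figure D3:**
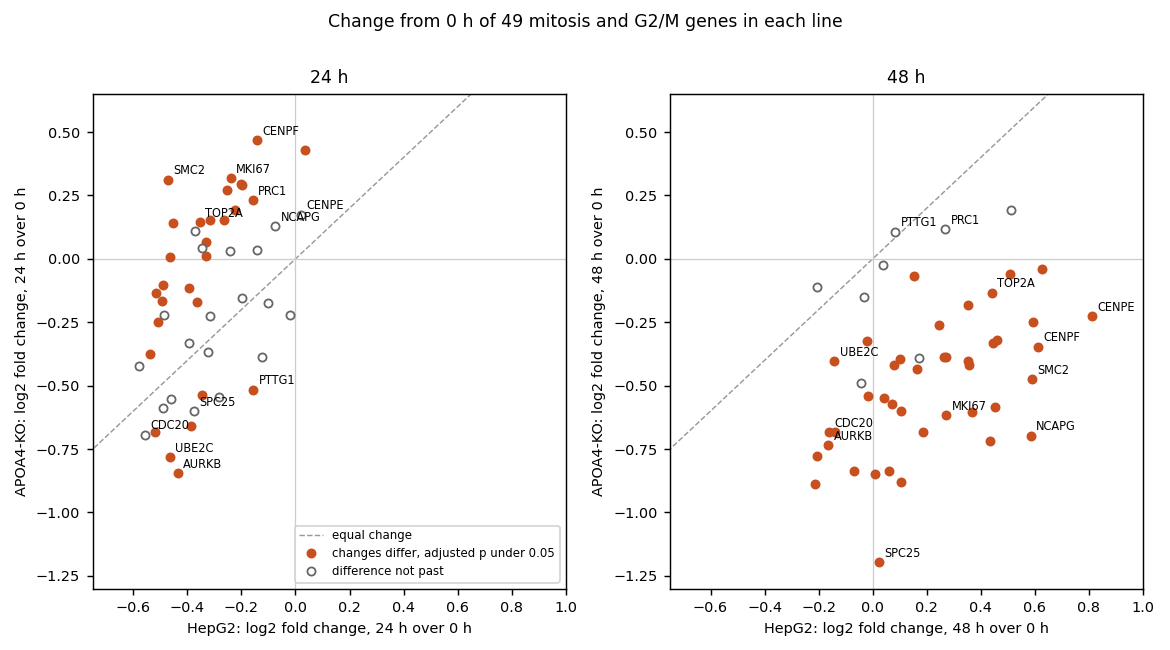
Log2 fold change from 0 h in HepG2 (horizontal axis) and in APOA4-KO (vertical axis) for the 49 genes at 24 h (left) and 48 h (right), with the dashed line marking equal change. Filled points are members whose changes passed the test of a difference between HepG2 and APOA4-KO (29 on the left, 41 on the right), and at 48 h they all lie below the dashed line.

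GC content of the transcripts moved with several of these differences and is given beside them. Over 12871 genes, the log2 fold change ran against GC content in the comparison of the lines at 24 h (Spearman rho -0.546), in APOA4-KO from 0 h to 24 h (-0.468) and in HepG2 from 0 h to 48 h (-0.45). The lines at 0 h (-0.333) and HepG2 from 24 h to 48 h (-0.276) followed. The trend was weaker in HepG2 from 0 h to 24 h (-0.124), in APOA4-KO from 0 h to 48 h (-0.143) and between the lines at 48 h (-0.107). In APOA4-KO from 24 h to 48 h, the log2 fold change rose with GC content (0.326). These are descriptions across genes of the same libraries. The members had a median GC content of 43.2% (35.3% to 59.6%), below the 48.8% of the genes used, and over the 49 members rho was -0.683 between the lines at 24 h, -0.829 in HepG2 from 0 h to 48 h and -0.0567 between the lines at 48 h. At 24 h, the 25 members of lower GC content had a median difference between the lines of 0.59, and the 24 of higher GC content one of 0.02. At 48 h, these medians were -0.57 and -0.54. In HepG2 from 24 h to 48 h they were 0.67 and 0.39, with a rho of -0.675 over the members. Between the lines at 0 h, that rho was -0.642, and 13 members of lower and 3 of higher GC content were called higher.

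An alternative fit, added after the data had been seen, removed the trend of each library with GC content and length. In it the members' median between the lines was 0.23 at 24 h, with 29 higher and 6 lower, and -0.54 at 48 h, with 3 higher and 40 lower. The median of the change from 0 h to 24 h was -0.31 in HepG2 and -0.20 in APOA4-KO. At 24 h, 6 of the 9 members that were lower in APOA4-KO were no longer so in this fit (PLK1, AURKB, CDC20 and FOXM1 at -0.05, -0.01, -0.03 and -0.05, BIRC5 at 0.01, and CDC25B, which passed as higher at 0.18). KIFC1 and MAD2L1 changed sign there, to 0.33 and -0.31. Of the 29 that were higher, TTK, DLGAP5, KIF23 and NCAPG did not pass in this fit, at 0.23, 0.11, 0.19 and 0.21, while CDC25B, CDCA8, KIFC1 and UBE2C passed as higher. The number of members whose change to 24 h was higher in APOA4-KO went from 23 to 14, and that of all genes from 3322 of 19743 to 2478 of 19181. The members' differences at 24 h thus depend on this correction in part of the genes, while 38 members were lower in HepG2 at 24 h and 40 lower between the lines at 48 h in either fit. The equal counts do not mean the same genes: in HepG2 at 24 h, SPC25 lost and CENPF gained the call, and between the lines at 48 h, CENPA lost and CENPE gained it.

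**Figure D4:**
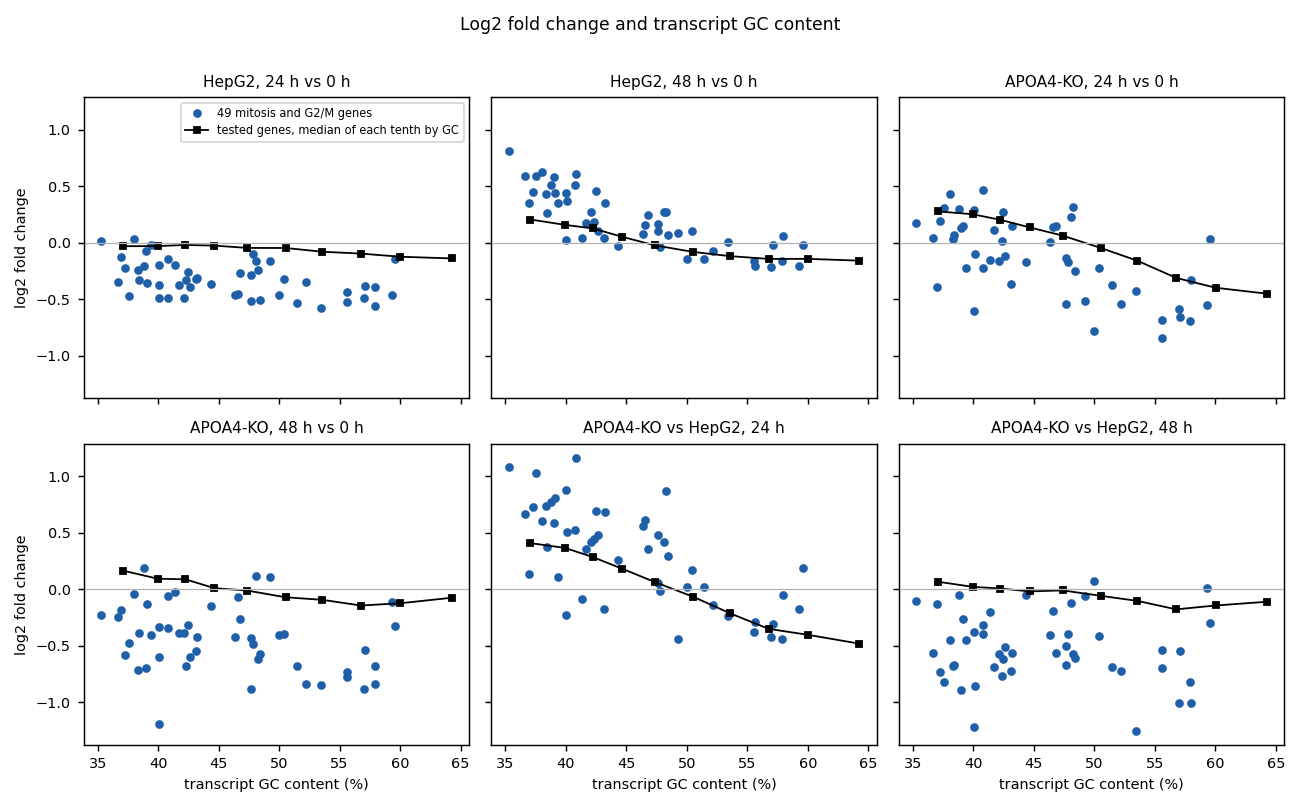
Log2 fold change (vertical axis) against transcript GC content in percent (horizontal axis) in 6 comparisons, with the 49 genes as circles and the medians of all tested genes in successive bins of GC content as black squares joined by a line. The squares fall with GC content in the comparison of the lines at 24 h, in APOA4-KO from 0 h to 24 h and, less steeply, in HepG2 from 0 h to 48 h; the circles of HepG2 at 24 h and of the lines at 48 h lie mostly below them.

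The promoters of several members are shown because genes of this class are known to be read through a cell-cycle homology region (TTTGAA, bound by the DREAM and MuvB complexes) next to CCAAT boxes (bound by NF-Y). The sequences are the 150 bases before the start site that the RefSeq promoter table gives for the gene, 5′ to 3′ on the strand of the gene, from RefSeq promoters on GRCh38.p14, with TTTGAA and CCAAT, or CCAAT read on the other strand as ATTGG, in capitals. PLK1 (chr16:23678739-23678888, plus strand), CDC20 (chr1:43358831-43358980, plus), PRC1 (chr15:90994536-90994685, minus), MKI67 (chr10:128126424-128126573, minus) and CCNB1 (chr5:69167000-69167149, plus) are given. The gene positions printed with the values are the full extents in GENCODE 29, which take in every transcript, so a window here can lie inside them.
PLK1: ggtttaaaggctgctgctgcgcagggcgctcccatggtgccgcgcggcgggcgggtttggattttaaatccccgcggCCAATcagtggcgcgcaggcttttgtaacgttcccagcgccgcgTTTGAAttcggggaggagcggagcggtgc
CDC20: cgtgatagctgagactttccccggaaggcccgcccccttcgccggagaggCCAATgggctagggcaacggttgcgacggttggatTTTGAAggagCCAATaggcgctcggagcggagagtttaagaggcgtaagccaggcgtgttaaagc
PRC1: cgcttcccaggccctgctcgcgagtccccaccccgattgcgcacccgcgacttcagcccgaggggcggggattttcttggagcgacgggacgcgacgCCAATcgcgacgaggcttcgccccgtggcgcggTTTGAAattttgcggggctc
MKI67: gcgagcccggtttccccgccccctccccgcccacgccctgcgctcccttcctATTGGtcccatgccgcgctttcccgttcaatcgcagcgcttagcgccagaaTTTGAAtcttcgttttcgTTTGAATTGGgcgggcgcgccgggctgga
CCNB1: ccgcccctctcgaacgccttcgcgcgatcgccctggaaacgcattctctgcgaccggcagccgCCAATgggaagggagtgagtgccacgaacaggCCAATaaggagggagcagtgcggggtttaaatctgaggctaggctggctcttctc
The first 4 hold TTTGAA at 20 to 65 bases before the start, and in MKI67 one of 2 matches overlaps an ATTGG by a base. CCNB1 holds 2 CCAAT boxes and no TTTGAA in this window. Over the 250 bases before the start, searched on both strands, 42 members had 54 windows. TTTGAA was in 46.3% of these windows, against 13.3% of all 35116 promoter windows and 9.71% of those of tested genes. CCAAT was in 70.4%, against 32.0% of all windows, and both motifs together were in 37.0%, against 4.69%. CCAAT occurred at least 2 times in 40.7% of the members' windows and in 9.53% of all. The related TTCGAA was in 1.85% against 1.19%, and the E2F-type letters TTCCCGC and TTGGCGC were in 11.1% against 5.52% and in 5.56% against 2.56%. Of the 33 matches to TTTGAA, 23 lay within 100 bases before the start, and 4 of all 120 matches overlapped a match to another motif. A match is a run of letters and not a bound site. The promoters of AURKA, FOXM1, TPX2, BIRC5, BUB3, UBE2C and TTK are named only.

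Among the genes of the entry into mitosis, CDK1, the kinase that phosphorylates most mitotic substrates (ENSG00000170312, chr10:60778331-60794852 on GRCh38), read 24.2, 27.3 and 25.7 CPM (0 h), 22.8, 22.7 and 25.4 (24 h) and then 33.2, 33.5 and 31.8 (48 h) in HepG2. In APOA4-KO it read 32.03, 31.8 and 38.1 CPM (0 h), 27.1, 26.9 and 23.9 (24 h) and then 29.03, 30.4 and 30.4 (48 h). All APOA4-KO libraries lay above those of HepG2 at 0 h and below them at 48 h, without overlap. The difference was 0.40 ± 0.07 at 0 h (edgeR adjusted p = 0.000205) and -0.13 ± 0.07 at 48 h, which did not pass (adjusted p = 0.127), while its change to 48 h differed between the lines by -0.53 ± 0.10 (adjusted p = 0.000261). CCNB1, cyclin B1, the activating partner of CDK1 (ENSG00000134057, chr5:69167010-69178245), read 105, 99.7 and 99.7 CPM (0 h), 76.1, 85.6 and 81.2 (24 h) and then 104, 107 and 101 (48 h) in HepG2 and 90.7, 93.02 and 93.8 CPM (0 h), 70.3, 74.6 and 70.2 (24 h) and then 63.3, 61.6 and 64.8 (48 h) in APOA4-KO. HepG2 returned to its starting level by 48 h, and APOA4-KO went down at each time. Between the lines, CCNB1 was at -0.18 ± 0.04 at 24 h and -0.72 ± 0.04 at 48 h (by edgeR, adjusted p = 0.00145 and 2.58e-11). Its difference at 0 h lost its call without the HepG2 0 h replicate 1 library (-0.11, adjusted p = 0.103) or the APOA4-KO 0 h replicate 1 library (-0.12, adjusted p = 0.073). Cyclin A2 (CCNA2) turned from 0.42 ± 0.05 at 24 h to -0.57 ± 0.05 at 48 h, and CDC25C, which activates CDK1, was at -0.67 ± 0.09 at 48 h. CCNB2 (-0.05 ± 0.05) and CDC25B (0.01 ± 0.05) did not pass at 48 h, and CDC25B was at -0.14 there when libraries were scaled by their totals alone.

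**Figure D5:**
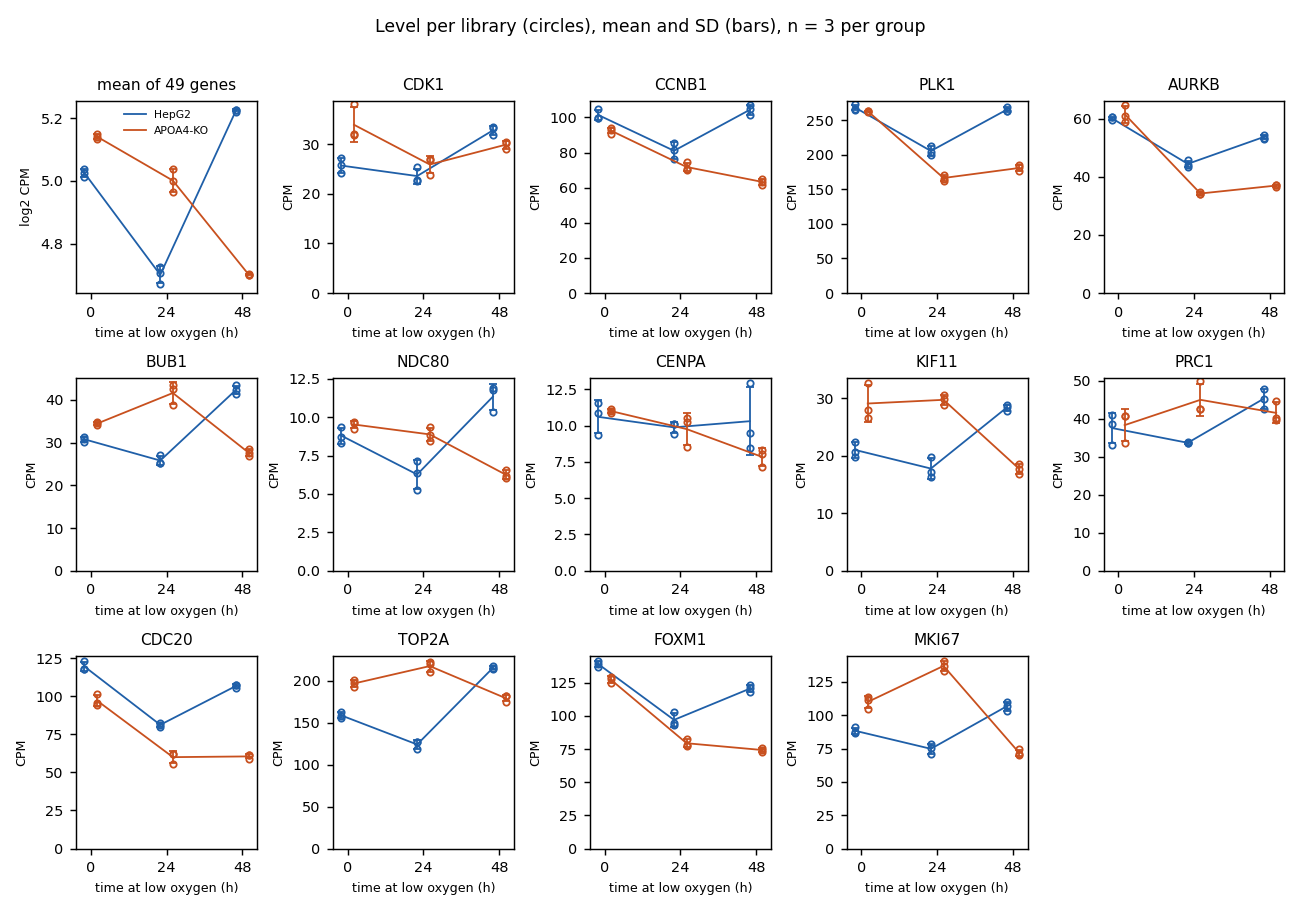
Mean log2 CPM of the 49 genes and CPM of the 13 genes given library by library (vertical axes) against hours at low oxygen (horizontal axis), HepG2 in blue and APOA4-KO in orange, drawn side by side at each time. Circles are libraries, lines join the means and bars are the SD (n = 3); in most panels the HepG2 line dips at 24 h and recovers at 48 h, while the APOA4-KO line ends below it.

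Of the mitotic kinases, PLK1, which acts from centrosome maturation to cytokinesis (ENSG00000166851, chr16:23677656-23690367), read 273, 267 and 265 CPM (0 h), 213, 203 and 200.2 (24 h) and then 269, 263 and 263 (48 h) in HepG2. The APOA4-KO libraries read 262, 264 and 263 CPM (0 h), 171, 165 and 163 (24 h) and then 176, 185 and 182 (48 h). They overlapped HepG2 neither at 24 h nor at 48 h, and at 0 h all 3 were below the HepG2 libraries by less than the test could tell (-0.03 ± 0.03, edgeR adjusted p = 0.494). The difference was -0.30 ± 0.03 at 24 h and -0.55 ± 0.03 at 48 h (adjusted p = 1.36e-08 and 2.28e-12). AURKA, the centrosomal Aurora kinase, went the other way at 24 h, to 0.62 ± 0.03 (mean CPM 93.3 ± 1.8 against 60.9 ± 0.98, SD, n = 3), and was at -0.20 ± 0.03 at 48 h. With the offsets for GC content, PLK1 was at -0.05 between the lines at 24 h and did not pass. At 0 h it was then at 0.08 and passed as higher. AURKA was at 0.59 at 24 h in that fit. By FPKM, a level per length and library, PLK1 was the second highest of the members in HepG2 at 0 h with a mean of 56.3, after CDC20 with 59.4, and CENPE the lowest with 0.53.

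The chromosomal passenger complex corrects faulty attachments and starts cytokinesis. Its kinase AURKB (ENSG00000178999, chr17:8204733-8210600) read 60.6, 60.6 and 59.5 CPM (0 h), 45.7, 43.6 and 44.3 (24 h) and then 53.1, 54.6 and 53.6 (48 h) in HepG2 and 61.1, 64.8 and 59.1 CPM (0 h), 34.2, 33.98 and 34.8 (24 h) and then 37.2, 37.3 and 36.7 (48 h) in APOA4-KO. At 24 h and 48 h, every APOA4-KO library was below every HepG2 library. AURKB was at -0.38 ± 0.04 between the lines at 24 h and -0.54 ± 0.04 at 48 h (by edgeR, adjusted p = 4.54e-08 and 2.57e-10), and the first of these was -0.01 with the offsets for GC content. Within APOA4-KO, its rise from 24 h to 48 h lost its call without any of the APOA4-KO 24 h replicate 1 or 2 or the APOA4-KO 48 h replicate 1 or 2 libraries (0.10 to 0.11, adjusted p = 0.0501 to 0.0564). BIRC5 was at -0.72 ± 0.04, CDCA8 at -0.69 ± 0.04 and the scaffold INCENP at -0.30 ± 0.06 at 48 h, so all 4 subunits were lower in APOA4-KO, against 27.3% of all tested genes. At 24 h, INCENP was higher (0.18 ± 0.06), BIRC5 lower (-0.14 ± 0.04) and CDCA8 did not pass (0.02 ± 0.04).

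Of the 5 genes of the spindle checkpoint, BUB1, a kinase at unattached kinetochores (ENSG00000169679, chr2:110637698-110678114), read 30.1, 30.9 and 31.3 CPM (0 h), 25.2, 25.1 and 27.1 (24 h) and then 41.5, 42.2 and 43.4 (48 h) in HepG2. In the edited line it read 34.5, 34.7 and 34.1 CPM (0 h), 42.6, 43.4 and 38.8 (24 h) and then 28.5, 26.9 and 27.4 (48 h). The APOA4-KO libraries were all above HepG2 at 24 h and all below at 48 h. The difference went from 0.69 ± 0.05 to -0.62 ± 0.05 (edgeR adjusted p = 2.89e-10 and 1.2e-09). BUB1B (BUBR1) behaved alike in value, with 0.68 ± 0.07 and -0.56 ± 0.07. BUB3, their shared partner, was at -0.20 ± 0.04 at 48 h, MAD2L1 (MAD2) at -0.45 ± 0.08, and TTK, at -0.31 ± 0.14, did not pass there. Within HepG2, 4 of the 5 were lower at 24 h, against 18.3% of all tested genes. All 5 rose from 24 h to 48 h by 0.24 to 1.00, against 18.7% of all tested genes called higher. With the offsets for GC content, the rise of BUB3 was 0.11 and did not pass.

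At the kinetochore, NDC80, which binds the microtubule (ENSG00000080986, chr18:2571511-2616635), read 8.31, 8.72 and 9.36 CPM (0 h), 7.17, 5.27 and 6.38 (24 h) and then 11.9, 11.8 and 10.4 (48 h) in HepG2 and 9.26, 9.71 and 9.61 CPM (0 h), 9.35, 8.82 and 8.46 (24 h) and then 6.16, 6.05 and 6.58 (48 h) in APOA4-KO. The 3 APOA4-KO libraries at 48 h were below the lowest HepG2 library of that time. NDC80 was at 0.50 ± 0.10 at 24 h and -0.86 ± 0.10 at 48 h between the lines (edgeR adjusted p = 0.00031 and 6.14e-07). Its partners in the same complex were at -1.25 ± 0.17 (SPC24), -1.22 ± 0.13 (SPC25) and -0.05 ± 0.11 (NUF2, not past) at 48 h. SPC25 read 9.71, 9.72 and 8.51 CPM (0 h), 7.44, 6.19 and 7.90 (24 h) and then 9.93, 9.58 and 8.90 (48 h) in HepG2 and 9.39, 9.16 and 9.32 CPM (0 h), 6.11, 5.14 and 7.12 (24 h) and then 3.37, 4.02 and 4.77 (48 h) in APOA4-KO. SPC24 read 14.3, 16.1 and 16.5 CPM (0 h), 9.91, 13.1 and 8.30 (24 h) and then 11.1, 19.4 and 16.7 (48 h) in HepG2 and 13.01, 10.1 and 12.5 CPM (0 h), 8.97, 8.71 and 8.86 (24 h) and then 6.54, 6.99 and 6.22 (48 h) in APOA4-KO, and its 3 HepG2 libraries at 48 h were spread from 11.1 to 19.4. Both genes had their lowest libraries in APOA4-KO at 48 h, below all other groups.

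The centromere histone CENPA (ENSG00000115163, chr2:26764289-26801067) read 11.6, 10.9 and 9.36 CPM (0 h), 10.1, 9.42 and 10.1 (24 h) and then 8.47, 9.46 and 12.96 (48 h) in HepG2 and 11.03, 11.1 and 10.9 CPM (0 h), 8.51, 10.2 and 10.51 (24 h) and then 8.34, 8.03 and 7.12 (48 h) in APOA4-KO. The groups lay close together, and at 48 h the highest APOA4-KO library was just under the lowest HepG2 library. CENPA passed at 48 h between the lines with -0.39 ± 0.13 (edgeR adjusted p = 0.0153), but not with the offsets for GC content (-0.24), nor without the HepG2 48 h replicate 3 library (-0.20, adjusted p = 0.16) or the APOA4-KO 48 h replicate 3 library (-0.33, adjusted p = 0.0717). CENPE, the motor that carries chromosomes to the spindle equator, had a mean CPM of 5.32 ± 0.14 in HepG2 and 10.1 ± 1 in APOA4-KO at 0 h, and 9.32 ± 0.76 and 8.67 ± 0.14 at 48 h (SD, n = 3). It was the member with the largest difference at 0 h (0.93 ± 0.12, edgeR adjusted p = 5.65e-06). CENPF, a large kinetochore protein of G2 and mitosis, went from 1.17 ± 0.07 at 24 h to -0.40 ± 0.07 at 48 h.

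Of the spindle motors and microtubule proteins, KIF11, the motor that pushes the spindle poles apart (ENSG00000138160, chr10:92593286-92655395), read 22.4, 20.7 and 19.8 CPM (0 h), 16.2, 17.2 and 19.8 (24 h) and then 27.8, 28.5 and 28.8 (48 h) in HepG2. Values in APOA4-KO were 27.98, 26.6 and 32.6 CPM (0 h), 29.9, 30.5 and 28.7 (24 h) and then 17.8, 18.5 and 16.8 (48 h). The APOA4-KO libraries were above HepG2 at 0 h and 24 h and below at 48 h, without overlap at any time. The 3 differences were 0.47 ± 0.08, 0.74 ± 0.08 and -0.68 ± 0.08 (edgeR adjusted p = 9.3e-05, 1.28e-07 and 3.91e-07). Its fall in HepG2 at 24 h lost its call without the HepG2 0 h replicate 1 (-0.18, adjusted p = 0.14), HepG2 24 h replicate 1 (-0.18, adjusted p = 0.124) or HepG2 24 h replicate 2 library (-0.22, adjusted p = 0.0809). All 8 genes of this role were lower in HepG2 at 24 h than at 0 h, by 0.24 to 0.46 on the log2 scale, rose by 48 h and were lower in APOA4-KO than in HepG2 at 48 h. Of all tested genes, 18.3%, 18.7% and 27.3% were called so in these comparisons. In that last comparison, KIFC1 was at -1.01 ± 0.04, DLGAP5 (HURP) at -0.67 ± 0.08, TPX2, the activator of AURKA, at -0.57 ± 0.03, HMMR at -0.57 ± 0.11 and NUSAP1 at -0.51 ± 0.07. The kinesins KIF2C and KIF4A were at -0.42 ± 0.05 and -0.40 ± 0.05. In NUSAP1, 62.2% of the exon bases are shared with another annotated gene, so its counts are uncertain.

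PRC1 bundles the microtubules of the spindle midzone (ENSG00000198901, chr15:90966038-90995629). It read 33.1, 40.9 and 38.7 CPM (0 h), 33.6, 33.9 and 33.5 (24 h) and then 42.6, 45.3 and 47.9 (48 h) in HepG2 and 40.8, 40.6 and 33.6 CPM (0 h), 49.8, 42.6 and 42.6 (24 h) and then 44.7, 39.7 and 40.2 (48 h) in APOA4-KO. At 48 h, the libraries of the lines overlapped, and the difference of -0.12 ± 0.08 did not pass (edgeR adjusted p = 0.251). At 24 h it was 0.42 ± 0.09 (adjusted p = 0.000388). PRC1 shares 58.4% of its exon bases with other annotated genes, an antisense gene among them, and whether strand was used in the counting is not stated. The other cytokinesis genes were lower in APOA4-KO at 48 h, with KIF23, the motor of centralspindlin, at -0.77 ± 0.09, KIF20A at -0.61 ± 0.04, ECT2 at -0.45 ± 0.08 and ANLN at -0.38 ± 0.06. At 24 h, all 5 genes of this role were higher in APOA4-KO, against 23.6% of all tested genes, with ANLN at 0.88 ± 0.06 and ECT2 at 0.61 ± 0.08. KIF23 did not pass there with the offsets for GC content (0.19, edgeR adjusted p = 0.0859).

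The genes of anaphase did not move as one. CDC20 (ENSG00000117399, chr1:43358955-43363203) read 118, 123 and 118 CPM (0 h), 79.9, 82.7 and 81.3 (24 h) and then 107, 108 and 106 (48 h) in HepG2. The same gene read 101, 95.5 and 94.6 CPM (0 h), 62.2, 55.6 and 62.3 (24 h) and then 61.3, 58.98 and 61.4 (48 h) in APOA4-KO. It was lower in every APOA4-KO library than in every HepG2 library of the same time. The differences were -0.30 ± 0.04, -0.44 ± 0.04 and -0.82 ± 0.04 at 0, 24 and 48 h (edgeR adjusted p = 1.18e-05, 3.3e-08 and 3.59e-12), and that at 24 h was -0.03 with the offsets for GC content. ESPL1 fell in both lines at 24 h, by 0.49 ± 0.06 and 0.59 ± 0.06, and was at -1.004 ± 0.06 between the lines at 48 h, with a mean CPM of 22.2 ± 0.88 against 44.6 ± 1.4 (SD, n = 3). SGO1, which protects cohesin at centromeres, was at -0.69 ± 0.17 at 48 h. UBE2C and PTTG1 stood apart: both fell in APOA4-KO by 24 h (-0.78 ± 0.06 and -0.52 ± 0.06) and rose again by 48 h, when they were at 0.07 ± 0.06 and -0.06 ± 0.05 against HepG2 and did not pass.

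The condensin genes and TOP2A moved together in value. TOP2A, topoisomerase II alpha (ENSG00000131747, chr17:40388516-40417950), read 156, 163 and 158 CPM (0 h), 118, 127 and 127 (24 h) and then 214, 218 and 215 (48 h) in HepG2 and 192, 197 and 202 CPM (0 h), 221, 222 and 210.2 (24 h) and then 175, 182 and 182 (48 h) in APOA4-KO. Every APOA4-KO library was above HepG2 at 0 h and 24 h and below it at 48 h. The difference went from 0.81 ± 0.03 to -0.26 ± 0.03 (edgeR adjusted p = 1.76e-13 and 7.21e-07). All 5 genes of this role were higher in APOA4-KO at 24 h, by 0.48 to 1.03 (log2), and lower at 48 h, against 23.6% and 27.3% of all tested genes. NCAPG did not pass at 24 h with the offsets for GC content (0.21, edgeR adjusted p = 0.0653). At 48 h, NCAPG was at -0.90 ± 0.10, SMC2 at -0.82 ± 0.10, SMC4 at -0.73 ± 0.07 and NCAPH at -0.50 ± 0.05. SMC2 had a mean CPM of 11.2 ± 0.87 in HepG2 and 22.9 ± 2.5 in APOA4-KO at 24 h, and of 23.4 ± 1 and 13.2 ± 0.84 at 48 h (SD, n = 3). Exons of NCAPG and SMC4 share 33.1% and 25.6% of their bases with genes of the other strand.

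FOXM1, the transcription factor that drives many of these genes (ENSG00000111206, chr12:2857681-2877155), read 142, 139 and 137 CPM (0 h), 93.2, 94.6 and 103 (24 h) and then 123, 118 and 121 (48 h) in HepG2 and 127, 129.7 and 125 CPM (0 h), 82.9, 77.8 and 77.4 (24 h) and then 75.9, 72.8 and 73.96 (48 h) in APOA4-KO. It fell in both lines by 24 h, came back in part in HepG2 and stayed low in APOA4-KO. Between the lines it was at -0.29 ± 0.04 at 24 h and -0.70 ± 0.04 at 48 h (by edgeR, adjusted p = 2.66e-06 and 1.2e-11), and the first of these did not pass with the offsets for GC content (-0.05). Its small difference at 0 h lost its call without the HepG2 0 h replicate 1 library (-0.11, adjusted p = 0.0677) or the APOA4-KO 0 h replicate 3 library (-0.12, adjusted p = 0.0606). MKI67, the gene of the proliferation marker Ki-67, which coats mitotic chromosomes (ENSG00000148773, chr10:128096659-128126385), read 86.6, 87.2 and 91.1 CPM (0 h), 78.2, 75.1 and 71.03 (24 h) and then 107, 109.8 and 103 (48 h) in HepG2 and 105, 111 and 113 CPM (0 h), 141, 137 and 133 (24 h) and then 70.8, 69.9 and 74.3 (48 h) in APOA4-KO. MKI67 was highest in APOA4-KO at 24 h, where all 3 libraries were above every other library, and the APOA4-KO 48 h libraries overlapped only those of HepG2 at 24 h. Between the lines it went from 0.87 ± 0.04 at 24 h to -0.57 ± 0.04 at 48 h (by edgeR, adjusted p = 2.42e-12 and 7.17e-10). The CPM values carry no offsets for GC content. With these offsets, MKI67 was at 0.46 between the lines at 24 h. Its change in APOA4-KO from 0 h to 24 h was then -0.03 and did not pass, so its peak there depended on this correction.

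The genes around the members were counted in lists written from general knowledge. In the comparison of the lines at 48 h, 27.3% of all tested genes were lower and 23.5% higher, with a median of -0.04. Of 33 other kinetochore and centromere genes, 28 were then lower in APOA4-KO than in HepG2 and 5 did not pass, with a median of -0.85 and with DSN1 at -1.91, CENPM at -1.82, CENPO at -1.69 and ZWINT at -1.66. Of 35 other mitotic regulators, 23 were lower and 3 higher, with BORA, an activator of PLK1, at -1.20 and GTSE1 at -1.12. Their median was -0.47 and their highest value 0.89. Of 17 genes of the anaphase-promoting complex, 13 were lower and 3 higher, with a median of -0.36 and a range from ANAPC15 at -1.35 to 0.66. Of 15 other condensin and cohesin genes, 7 were lower and 6 higher, with a median of -0.06, near that of all tested genes. Their values ran from ESCO2, an acetyltransferase of cohesin, at -2.05 to 0.82. Together these 4 lists had 71 of 100 lower and 12 higher with a median of -0.56, which is that of the members. At 24 h they had 45 higher and 23 lower, against 23.6% and 24.6% of all tested genes, with ASPM at 1.28.

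Genes of DNA replication and S phase, the step before G2, were lower by more. Of 38, 36 were lower in APOA4-KO at 48 h, against 27.3% of all tested genes, and 2 did not pass, with a median of -1.28, and CCNE2 (cyclin E2) was at -2.70, CDC6 at -2.42, GINS3 at -2.17 and UHRF1 at -2.11. In APOA4-KO, 34 of the 38 were already lower at 24 h than at 0 h, against 22.8% of all tested genes, with a median of -0.50. The 49 mitotic genes had 22 lower and 12 higher, but most of these rises did not pass with the offsets for GC content and length. The S phase genes were not summarized with these offsets. In HepG2, 27 S phase genes were lower at 24 h, against 18.3%, and 31 rose from 24 h to 48 h, against 18.7%. Among 22 regulators of the DREAM, MuvB, RB and E2F group, 12 were lower and 4 higher in APOA4-KO at 48 h, beside the same 27.3% and 23.5%. E2F7 was at -2.41, E2F2 at -1.94, MYBL2 (B-MYB) at -1.84 and E2F8 at -1.82, while the median was -0.32 and the highest value 0.81. Of 11 tested G1 cyclins, kinases and inhibitors, 5 were lower and 3 higher at 48 h, with CCND3 (cyclin D3) at -1.67, CCND2 at -1.25, CDK4 at -1.03 and CDKN2C at -0.90. The highest of this list was at 0.58. Before hypoxia, 6 of the 11 were already lower and 2 higher in APOA4-KO, against 17.6% and 12.9% of all tested genes, with the lowest at -1.46.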

How the data were processed

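The deposited counts are whole numbers per gene and library. To make them the authors used fastp for trimming, HISAT2 for alignment on Ensembl GRCh38.p13 and, per their methods, featureCounts, while the submitters' processing notes list StringTie, so which program gave the counts is not settled. The deposited FPKM values are scaled by the authors to gene length and library size. Groups follow the sample labels. Genes were filtered with filterByExpr, scaled by TMM and fitted over all 18 libraries with edgeR 4.0.16 (quasi-likelihood, R 4.3.3), with Benjamini-Hochberg adjustment over 19743 genes. Alternatives used limma 3.58.1 on log2(FPKM + 1) and log2(FPKM + 0.1), DESeq2 1.42.0, other scalings and filters, a replicate block, and each library left out; offsets for GC content and length were added after seeing the data. Scripts were tested on simulated data. The members and lists were chosen with earlier results of these data known. Named genes are 13 members fixed by name, at least 1 from each role, up to 5 called members with the largest changes each way per comparison, called members against the main direction, and up to 4 of each other list; SPC24 and SPC25 libraries were added after seeing values.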

Additional observations from a re-analysis of the deposited data

Results flagged for a closer look

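The change from 0 h differed between the lines by the interaction test of the edgeR fit, which is what singled these results out. For the 24 h change, 23 members had a higher and 6 a lower change in APOA4-KO, against 16.8% and 15.4% of all tested genes. The differences (log2, APOA4-KO minus HepG2) of the members named for it were PLK1 (-0.28), AURKB (-0.41), BUB1 (0.53), NDC80 (0.39), PRC1 (0.39), TOP2A (0.50), FOXM1 (-0.16), MKI67 (0.56), SMC2 (0.78), CENPF (0.61), AURKA (0.59), PTTG1 (-0.36), UBE2C (-0.32) and BIRC5 (-0.19). FOXM1 and NDC80 lost this call in 12 and 9 of the 18 refits that left out a library. With the offsets for GC content and length, 14 members had a higher and 6 a lower change, against 2478 and 2369 of 19181 genes. Of those named, CENPF (0.21), NDC80 (0.24), PRC1 (0.30), UBE2C (-0.19), BIRC5 (-0.13) and FOXM1 (-0.03) did not pass. For the 48 h change, 41 members had a lower change in APOA4-KO and 39 with the offsets, against 3513 of 19743 and 3415 of 19181 genes. The differences named for it were CDK1 (-0.53), CCNB1 (-0.59), PLK1 (-0.52), AURKB (-0.57), BUB1 (-0.78), NDC80 (-0.97), KIF11 (-1.15), CDC20 (-0.52), TOP2A (-0.57), FOXM1 (-0.57), MKI67 (-0.89), NCAPG (-1.28), SPC25 (-1.22), SMC2 (-1.06) and SMC4 (-1.04). GC content ran against the 24 h differences over 12871 genes at a Spearman rho of -0.461, and at -0.446 over the 49 members. For the 48 h differences, rho was 0.0549 over these genes and 0.435 over the members.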

How the results depend on the processing

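The fall of the members in HepG2 at 24 h, their rise from 24 h to 48 h, and their lower level in APOA4-KO at 48 h kept the direction of their median, and most of their calls, in every alternative that kept the adjusted p as the only threshold. Where values differed from the reported ones by more than the replicate spread, they are given here, and the cause was not tested. The calls over all genes moved too: between the lines at 0 h, 3467 were lower in the reported fit and 2905 with the offsets. With scaling by library totals alone, the median of the members was 0.43 between the lines at 24 h, -0.71 between the lines at 48 h, -0.42 in HepG2 at 24 h over 0 h, 0.60 in HepG2 at 48 h over 24 h, -0.16 in APOA4-KO at 24 h over 0 h, -0.58 in APOA4-KO at 48 h over 0 h, -0.44 in APOA4-KO at 48 h over 24 h, 0.30 for the difference in the 24 h change and -0.81 for the difference in the 48 h change and the number called was 3 higher in APOA4-KO at 48 h over 24 h. With size factors of the RLE method, the median of the members was -0.51 between the lines at 48 h, -0.31 in HepG2 at 24 h over 0 h, 0.48 in HepG2 at 48 h over 24 h and 0.22 for the difference in the 24 h change. In DESeq2, the median of the members was -0.51 between the lines at 48 h, -0.31 in HepG2 at 24 h over 0 h, 0.48 in HepG2 at 48 h over 24 h and 0.22 for the difference in the 24 h change and the number called was 4 lower between the lines at 0 h. In limma on log2(FPKM + 1), the median of the members was 0.33 between the lines at 24 h, -0.49 in APOA4-KO at 48 h over 0 h, -0.36 in APOA4-KO at 48 h over 24 h, 0.21 for the difference in the 24 h change and -0.69 for the difference in the 48 h change and the number called was 3 higher in APOA4-KO at 48 h over 24 h. In limma on log2(FPKM + 0.1), the median of the members was 0.42 between the lines at 24 h, -0.70 between the lines at 48 h, -0.40 in HepG2 at 24 h over 0 h, 0.59 in HepG2 at 48 h over 24 h, -0.57 in APOA4-KO at 48 h over 0 h, -0.43 in APOA4-KO at 48 h over 24 h, 0.30 for the difference in the 24 h change and -0.80 for the difference in the 48 h change and the number called was 3 higher in APOA4-KO at 48 h over 24 h. With only the compared groups in the fit, the median of the members was 0.12 between the lines at 0 h, -0.29 in HepG2 at 24 h over 0 h, 0.19 in HepG2 at 48 h over 0 h, 0.48 in HepG2 at 48 h over 24 h and -0.39 in APOA4-KO at 48 h over 0 h and the number called was 1 higher in APOA4-KO at 48 h over 0 h. With the offsets for GC content and length, chosen after seeing the data, the median of the members was 0.23 between the lines at 24 h, -0.31 in HepG2 at 24 h over 0 h, 0.45 in HepG2 at 48 h over 24 h, -0.20 in APOA4-KO at 24 h over 0 h, -0.27 in APOA4-KO at 48 h over 24 h, 0.17 for the difference in the 24 h change and -0.55 for the difference in the 48 h change and the number called was 4 lower between the lines at 0 h, 3 higher between the lines at 48 h, 0 lower in HepG2 at 48 h over 0 h, 3 higher in APOA4-KO at 24 h over 0 h, 1 higher in APOA4-KO at 48 h over 0 h and 14 higher for the difference in the 24 h change. When a change of at least 2-fold was also asked for, the number called was 3 higher between the lines at 24 h, 4 lower between the lines at 48 h, 1 higher in HepG2 at 48 h over 24 h, 1 lower in APOA4-KO at 48 h over 0 h and 6 lower for the difference in the 48 h change, and 0 in every other comparison and direction that had calls. With scaling by library totals alone, the sign turned for CDC25B (-0.14) between the lines at 48 h, PLK1 (-0.0093) in APOA4-KO at 48 h over 24 h, AURKB (-0.0188) in APOA4-KO at 48 h over 24 h, BUB3 (-0.0014) in APOA4-KO at 48 h over 24 h and CDC20 (-0.12) in APOA4-KO at 48 h over 24 h. In limma on log2(FPKM + 1), the sign turned for CDC25B (-0.13) between the lines at 48 h, PLK1 (-0.0086) in APOA4-KO at 48 h over 24 h, AURKB (-0.0162) in APOA4-KO at 48 h over 24 h, BUB3 (-0.0010) in APOA4-KO at 48 h over 24 h and CDC20 (-0.11) in APOA4-KO at 48 h over 24 h. In limma on log2(FPKM + 0.1), the sign turned for CDC25B (-0.14) between the lines at 48 h, PLK1 (-0.0088) in APOA4-KO at 48 h over 24 h, AURKB (-0.0172) in APOA4-KO at 48 h over 24 h, BUB3 (-0.0010) in APOA4-KO at 48 h over 24 h and CDC20 (-0.12) in APOA4-KO at 48 h over 24 h. With the offsets for GC content and length, the sign turned for PLK1 (0.0823) between the lines at 0 h, KIFC1 (0.0360) between the lines at 0 h, CDC25B (0.18) between the lines at 24 h, BIRC5 (0.0111) between the lines at 24 h, MAD2L1 (-0.31) between the lines at 24 h, KIFC1 (0.33) between the lines at 24 h, PTTG1 (0.12) between the lines at 48 h, PLK1 (0.0908) in HepG2 at 48 h over 0 h, KIF11 (-0.23) in APOA4-KO at 24 h over 0 h, SMC2 (-0.0059) in APOA4-KO at 24 h over 0 h, SMC4 (-0.10) in APOA4-KO at 24 h over 0 h, TOP2A (-0.15) in APOA4-KO at 24 h over 0 h, MKI67 (-0.0284) in APOA4-KO at 24 h over 0 h, PLK1 (-0.0113) in APOA4-KO at 48 h over 24 h, AURKB (-0.0028) in APOA4-KO at 48 h over 24 h, CDC20 (-0.17) in APOA4-KO at 48 h over 24 h and BUB3 (-0.30) for the difference in the 24 h change.

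Scaling by library totals alone moved the median of all tested genes to -0.19 between the lines at 48 h, -0.23 in APOA4-KO at 48 h over 0 h, -0.18 in APOA4-KO at 48 h over 24 h and -0.21 for the difference in the 48 h change, so the members are to be read against it. Over the 18 refits that each left out 1 library, between the lines at 0 h 12 to 16 members were higher and 3 to 7 lower, with a median of 0.0701 to 0.11, between the lines at 24 h 28 to 31 members were higher and 9 lower, with a median of 0.31 to 0.40, between the lines at 48 h 0 members were higher and 39 to 41 lower, with a median of -0.56 to -0.54, in HepG2 at 24 h over 0 h 0 members were higher and 31 to 39 lower, with a median of -0.36 to -0.31. Likewise, in HepG2 at 48 h over 0 h 22 to 25 members were higher and 3 to 7 lower, with a median of 0.16 to 0.20, in HepG2 at 48 h over 24 h 45 to 48 members were higher and 0 lower, with a median of 0.499 to 0.55, in APOA4-KO at 24 h over 0 h 10 to 13 members were higher and 18 to 23 lower, with a median of -0.16 to -0.0964, in APOA4-KO at 48 h over 0 h 0 to 1 members were higher and 36 to 39 lower, with a median of -0.44 to -0.40. In the remaining comparisons, in APOA4-KO at 48 h over 24 h 5 to 7 members were higher and 31 to 35 lower, with a median of -0.36 to -0.30, for the difference in the 24 h change 18 to 24 members were higher and 5 to 7 lower, with a median of 0.21 to 0.28, for the difference in the 48 h change 0 members were higher and 39 to 42 lower, with a median of -0.65 to -0.60. Same-numbered libraries deviated together with a correlation of -0.0539 to 0.0511, which cannot settle whether the replicate numbers pair the libraries. In APOA4-KO from 24 h to 48 h, all 3 libraries matched best with their own number, at 0.0511, 0.0233 and 0.0169. With the replicate number as a block, 16 members were higher and 6 lower between the lines at 0 h, 29 and 9 at 24 h and 40 lower at 48 h, and 37 were lower in HepG2 at 24 h, so no count of the pairing fit moved by over 1.5 times.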
